A study of Homo sapiens with 9 samples.

Results

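The cytosolic ribosome is built from a large and a small subunit, and the ribosomal protein genes encode the proteins of both. They were followed in HEK293T, a line derived from human embryonic kidney, after transfection with BPIFB4, a secreted protein of the BPI fold family. The members are the probes whose symbol in the array's gene table is RPL or RPS plus a number, RPLP1 or RPLP2, with the letters and paralog digit of named family members allowed and pseudogenes and the RPS6K kinases left out. This gave 127 of 47310 probes, for 78 of 20043 genes with a named probe, of which 80 probes of 50 genes belong to the large subunit and 47 probes of 28 genes to the small subunit. A probe was kept when its detection p-value was under 0.05 on at least 3 arrays, which left 121 member probes of 75 genes among 20914 kept probes. Of the kept members 119 were detected on all 9 arrays.

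The groups were cells transfected with LAV-BPIFB4, the longevity-associated variant, cells transfected with WT-BPIFB4, and cells given the empty plasmid, with 3 arrays each. The vector was pRK5 and the carrier a lipid reagent, and all cells were kept without serum for 18 hours from 24 hours after transfection. Whether the triplicates were separate cultures is not stated, so the p-values rest on a spread that may be technical. The 9 arrays shared 1 chip, where the 3 of a group sat side by side, and an effect of position cannot be told apart from one of the group. HEK293T markers were detected on all arrays for 9 of 14 probes, while all 7 probes of endothelial markers were undetected on every array. The summed normalized intensity of the HEK293T probes, offset included, was 12680 to 13348 with LAV-BPIFB4, 13268 to 14626 with WT-BPIFB4 and 18219 to 19065 with the empty vector. The called changes among their 10 kept probes were those of the 2 VIM probes, lower with LAV-BPIFB4 by 0.62 and 0.67 on the log2 scale, and the other 8 summed to 3018 to 3497 with LAV-BPIFB4, 2853 to 3375 with WT-BPIFB4 and 3365 to 3598 with the empty vector. For leukocyte probes, of which 2 of 12 were detected on all arrays and 9 on none, it was 930 to 1403 with LAV-BPIFB4, 875 to 1057 with WT-BPIFB4 and 664 to 786 with the empty vector. There 1 CD68 probe was called higher with LAV-BPIFB4, by 1.10, and the 2 other kept probes, of CD14 and CD68, had changes of 0.20 and -0.03. Fibroblast and hepatocyte markers were detected on all arrays for 1 of 10 and 1 of 8 probes. The part of these shifts in the results below was not tested. In bulk RNA, for any of these genes, fewer cells of a type and less RNA per cell cannot be told apart. From 119 to 122 of the 127 member probes were detected per array. WT-BPIFB4 replicate 1 stood apart, as described with the WT-BPIFB4 results. A separately deposited value table was at odds with the LAV-BPIFB4 arrays of the scanner table: its LAV-BPIFB4 columns correlated with their own arrays at 0.9925 to 0.9951, and 2 of the 3 correlated more closely with another array. In the 6 other samples the correlation was at least 0.9992. The scanner table is used throughout, and counts from the value table are given with the other alternatives.

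Ribosomal proteins are made in near-equal amounts because each occurs once, or nearly so, in a ribosome. Their mRNAs are among the most abundant of a growing cell and usually start with a terminal oligopyrimidine (TOP) tract, a C followed by a run of C and T, through which mTOR and LARP1 control their translation. Some genes have paralogs with an L or L1 in the symbol, such as RPL39L or RPL26L1, that are expressed more narrowly or at lower levels.

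The tract was looked for at the annotated starts, because it is the feature that most defines the family at the sequence level. A start was counted when a C at its first base was followed by at least 4 bases that are each C or T, read on the gene's own strand. Starts were read for 66 member genes in the RefSeq table of GRCh38.p14, with some members left out as given below the windows. Of the 66 genes, 45 (68.2%) had a counted start, against 1404 of 27305 genes in all (5.14%). The share was 28 of 41 genes in the large subunit and 17 of 25 in the small subunit. It was 2 of 8 among the paralogs, counted here with the Y-linked members, and 43 of 58 among the other members. Of these 2 tracts, that of RPL22L1 belonged to a paralog with L1 in the symbol and the other to a Y-linked member. Windows of 25 bases, 10 before the start and 15 from it, follow with the tract in capitals, first for genes whose probes were called higher with LAV-BPIFB4 and then for a parent gene and its paralog. A match describes the letters only, and RefSeq starts can lie some bases away from those used in these cells.
RPS24 (chr10:78033853-78033877, plus strand): aatcgtggttCTCTTTTCCTCCTTg
RPS21 (chr20:62387093-62387117, plus strand): ctagctgcttCCTTTCTCTCTCgcg
RPLP1 (chr15:69452808-69452832, plus strand): ggcgcgagagCCCCTTTCCTCagct
RPL36 (chr19:5690285-5690309, plus strand): cggcgccagcCCTTCCgccacggcc
RPL41 (chr12:56116623-56116647, plus strand): cttcgcctttCTCTCggccttagcg
RPS7 (chr2:3575250-3575274, plus strand): cgccctcctcctcgcgctgtttccg
RPL26 (chr17:8383179-8383203, minus strand): gcgtgtagttCTCTTCCCTTTTgcg
RPL26L1 (chr5:172958870-172958894, plus strand): ggcggcggccacaaacccgcaggca
RPS27 (chr1:153990752-153990776, plus strand): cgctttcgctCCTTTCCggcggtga
RPS27L (chr15:63157463-63157487, minus strand): gatgccgagcgcagatcgcttgcag

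The windows of RPS24, RPS21, RPLP1, RPL36 and RPL41 hold tracts of 14, 12, 11, 6 and 5 bases. RPS7 has a run of 3 pyrimidines at its start and was not counted. In both parent and paralog pairs the parent has a tract, of 12 bases in RPL26 and 7 bases in RPS27, and the paralog starts with a purine. RefSeq lists another start for RPL26L1, which was not counted either. Among genes with a probe called with LAV-BPIFB4, 7 of 14 had a counted start, against 38 of 52 other members. The called genes RPL7 and RPL8 lie on chromosome 8 and are not among the 14. RPL30 and RPS20 lie there too, and all members of that chromosome were left out of the tract counts. Their absence does not show that they lack a start. The shares of members and of all genes may therefore rest on unlike sets of genes.

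Most ribosomal protein probes lay at the top of the signal range. Levels are log2 intensities after background correction, an offset of 16 and quantile normalization. Of the 121 kept members, 81 (66.9%) were among the brightest 5% of kept probes and 44 (36.4%) among the brightest 1%. The median of the probes' mean levels was 12.83 for the large subunit and 13.80 for the small subunit, against 7.20 for all kept probes. A mean level over 13 was reached by 65 members, 34 of 76 in the large subunit and 31 of 45 in the small subunit. The brightest kept probe of any kind had a mean level of 14.41, so these members lay close to the top of the range. A probe's brightness depends on its sequence as well as on the mRNA, so the levels of different probes are not compared as amounts of RNA.

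A few members were dim. The 6 probes that were not kept were both probes of RPL10, 1 of 2 probes of RPL36A, 1 of 2 of RPS27L, the only probe of RPL3L and that of RPS4Y2. RPL10 encodes a core protein that joins the large subunit late in its assembly, and its 2 probes were detected on 0 and 2 arrays, with highest scanner signals of 121 and 128. RPL3L is a muscle paralog of RPL3 and was detected on 0 arrays. RPL10L, a testis paralog of RPL10, was detected on 5 arrays and had a mean level of 5.30.

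With LAV-BPIFB4, 19 ribosomal protein probes of 17 genes were called higher than with the empty vector and 1 was called lower (limma, Benjamini-Hochberg adjusted p under 0.05 over all kept probes). The share called was 16.5% of the members, where 7.72% of all kept probes were called. Higher calls made up 15.7% of the members against 3.64% of all kept probes, and lower calls 0.826% against 4.08%. The 19 probes were higher by 0.38 to 1.42 on the log2 scale, and in each the 3 LAV-BPIFB4 arrays lay above the 3 empty vector arrays. Over all members the groups did not overlap in this direction for 47 of 121 probes (38.8%), where the same held for 14.7% of all kept probes. The median log2 change was 0.13 over the members and 0.0082 over all kept probes, and 77 of 121 members had a positive change (63.6%, against 50.8%).

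**Figure D1:**
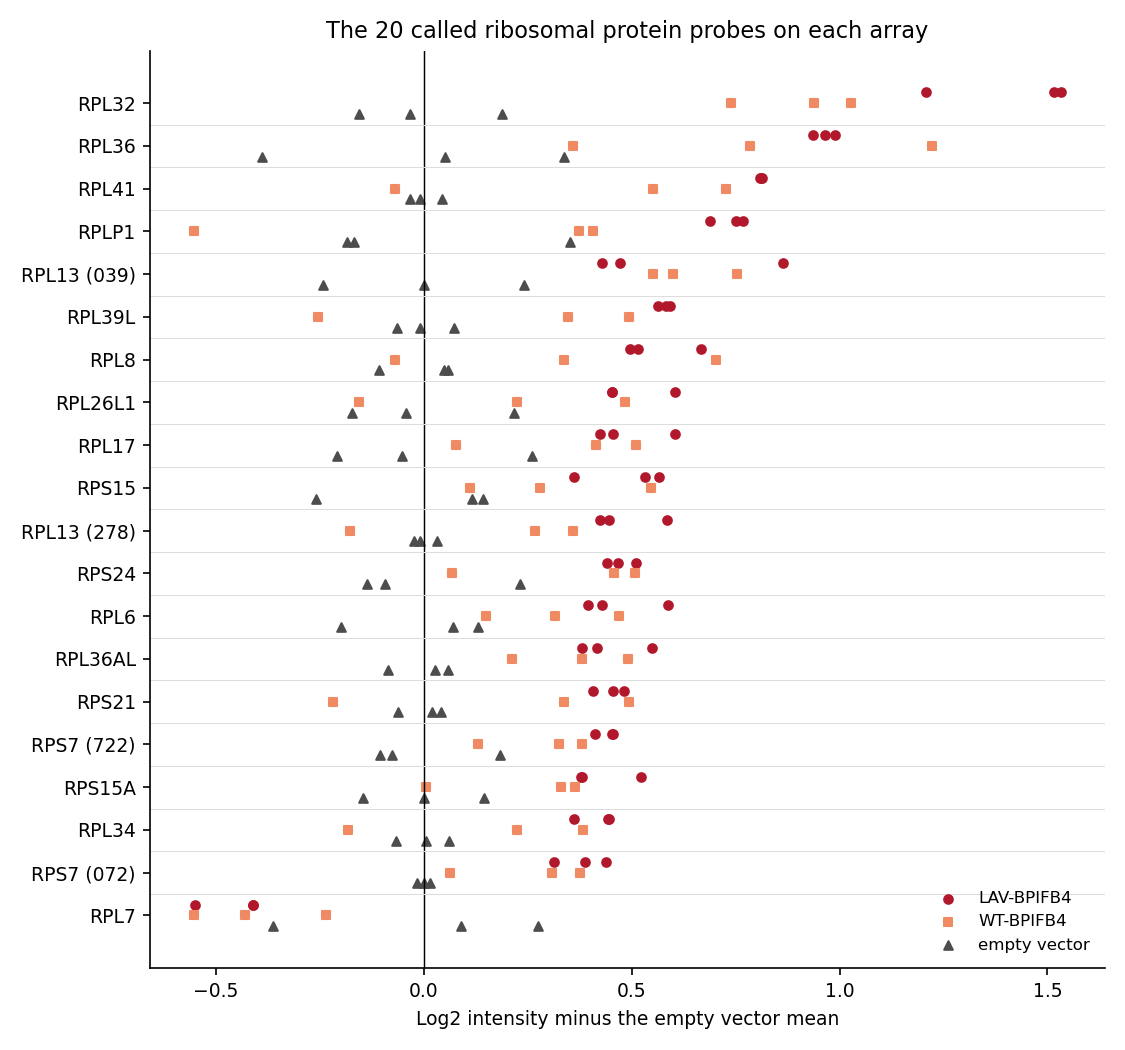
Log2 intensity of each called probe on each array, as the difference from the mean of the 3 empty vector arrays (x axis), with a row per probe, circles for LAV-BPIFB4, squares for WT-BPIFB4 and triangles for the empty vector. Figures in brackets are the last digits of the probe identifier for genes with 2 called probes. The 3 LAV-BPIFB4 arrays lie to the right of the 3 empty vector arrays in the 19 probes called higher, and 1 WT-BPIFB4 array often lies among the empty vector arrays.

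The probe with the lowest p was 1 of 4 of RPL32, which encodes eL32 of the large subunit. It had log2 intensities of 8.95, 8.64 and 8.97 with LAV-BPIFB4, of 8.46, 8.17 and 8.37 with WT-BPIFB4, and of 7.40, 7.28 and 7.62 with the empty vector. The 3 groups did not overlap, and the levels stood in the order LAV-BPIFB4, WT-BPIFB4, empty vector. The change with LAV-BPIFB4 was 1.42 ± 0.17 (SE), or 2.67-fold on the scale with the offset (limma, adjusted p = 2.69e-05), and it was the only member change over 1 on the log2 scale. The brightest RPL32 probe had a change of -0.04 and the other 2 had changes of 0.54 and 0.38, none of them called.

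RPL36 and RPL41 encode small, basic proteins of the large subunit. The RPL36 probe had levels of 9.08, 9.10 and 9.05 with LAV-BPIFB4, of 8.89, 8.47 and 9.33 with WT-BPIFB4, and of 8.16, 7.72 and 8.45 with the empty vector. Its LAV-BPIFB4 arrays were tightly grouped above all empty vector arrays, and the WT-BPIFB4 arrays spread on both sides of the LAV-BPIFB4 arrays. The change was 0.96 ± 0.20 (limma, adjusted p = 0.0067). The RPL41 probe read 8.43, 8.42 and 8.43 with LAV-BPIFB4, 7.55, 8.17 and 8.34 with WT-BPIFB4, and 7.61, 7.58 and 7.66 with the empty vector, a change of 0.81 ± 0.19 (limma, adjusted p = 0.013). The first WT-BPIFB4 array was below the empty vector arrays there and the other 2 were above them.

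RPLP1 encodes an acidic protein of the ribosomal stalk, the flexible arm that recruits elongation factors. Its dimmest probe had levels of 10.10, 10.04 and 10.12 with LAV-BPIFB4, of 8.79, 9.72 and 9.75 with WT-BPIFB4, and of 9.70, 9.18 and 9.16 with the empty vector. The LAV-BPIFB4 arrays stood above all others, and the change from the empty vector was 0.74 ± 0.20 (limma, adjusted p = 0.028). Both of its brighter probes had changes of -0.21 and 0.0053 and were not called. Over the 4 kept probes of the stalk genes RPLP1 and RPLP2, 1 was called higher and the median change was -0.03. The share called higher was 15.7% of all members and 3.64% of all kept probes.

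In RPL13, a large subunit protein whose gene hosts a small nucleolar RNA, both kept probes were called higher, by 0.59 ± 0.16 and 0.49 ± 0.13 (limma, adjusted p = 0.025 and 0.028). The probe with the larger change had 9.31, 9.35 and 9.74 with LAV-BPIFB4, 9.48, 9.43 and 9.63 with WT-BPIFB4, and 8.88, 8.64 and 9.12 with the empty vector. Here both groups with BPIFB4 lay above the empty vector and overlapped each other. Also called higher in the large subunit were RPL17, which lines the exit tunnel through which the new chain leaves, by 0.49, RPL8, which lies near the catalytic centre, by 0.56, RPL6 by 0.47 and RPL34 by 0.42. Of the 10 kept probes for proteins at the exit tunnel and its rim, a probe of RPL17 was the only one called. Among all members 15.7% were called higher, and among all kept probes 3.64%.

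3 paralogs were among the genes called higher. RPL36AL, a near-identical copy of RPL36A expressed in most tissues, had 13.26, 13.10 and 13.13 with LAV-BPIFB4, 12.93, 13.10 and 13.21 with WT-BPIFB4, and 12.63, 12.74 and 12.77 with the empty vector (change 0.45 ± 0.10, limma, adjusted p = 0.011). All 6 arrays with BPIFB4 exceeded the 3 without it. The kept probe of RPL36A itself had a change of 0.45 ± 0.21 and was not called (limma, adjusted p = 0.19). RPL39L, a paralog of RPL39 known from testis and tumour cells, was higher by 0.58 ± 0.16, and RPL26L1 by 0.50 ± 0.15 (limma, adjusted p = 0.034 and 0.042). The parents of these 2, RPL39 and RPL26, had changes of -0.11 and 0.16 and were not called, and the difference between parent and paralog was not tested.

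Small subunit calls came from 5 genes. RPS7, which is mutated in some cases of Diamond-Blackfan anaemia, an inherited failure of red cell production, was called with both of its probes. The brighter one had 12.19, 12.23 and 12.24 with LAV-BPIFB4, 11.91, 12.11 and 12.16 with WT-BPIFB4, and 11.67, 11.70 and 11.96 with the empty vector, a change of 0.44 ± 0.11 (limma, adjusted p = 0.018). The first WT-BPIFB4 array overlapped the empty vector range and the LAV-BPIFB4 arrays did not. RPS24, another gene of that disease, was higher by 0.47 with 1 of 2 probes. Thus 3 of the 12 kept probes of the 8 measured genes on that list were called, 2 of them of RPS7. Higher calls made up 15.7% of all member probes and 3.64% of all kept probes. RPS15, whose tail reaches the decoding site, was higher by 0.49 with 1 of 3 probes and was the only call among 10 probes for proteins of the mRNA channel. RPS21 was higher by 0.45 and RPS15A by 0.43. The 3 probes of RPL5 and RPL11, which with 5S RNA can bind MDM2, had changes between -0.14 and 0.13, and 0 were called or had an unadjusted p under 0.05.

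The only probe called lower was that of RPL7, an RNA-binding protein of the large subunit, by 0.46 ± 0.14 (limma, adjusted p = 0.049). It had 11.00, 10.86 and 11.00 with LAV-BPIFB4, 10.98, 11.18 and 10.86 with WT-BPIFB4, and 11.68, 11.05 and 11.50 with the empty vector. The second empty vector array was lower than 1 WT-BPIFB4 array, and all LAV-BPIFB4 arrays were below the empty vector. The next lowest p in this direction belonged to probes of RPS15, RPL38, RPS3A and RPS29, with changes from -0.29 to -0.24 that were not called.

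The count of 20 rested on every array of both groups. Leaving out LAV-BPIFB4 replicate 1, 2 or 3 gave 2, 7 and 3 calls, and leaving out empty vector replicate 1, 2 or 3 gave 7, 10 and 9. Over all kept probes the reported fit called 1615. The fits without a LAV-BPIFB4 array called 526, 822 and 486, and those without an empty vector array 829, 1110 and 871. The member count was 6 with the value table, 3 with median scaling, 6 with no filter on detection and 1 with no intensity trend in the variance, while array weights gave 30. Over all kept probes it was 913 with the value table, 243 with median scaling, 210 with no intensity trend and 2962 with array weights. With no filter 923 of all probes were called. The median change over the members stayed between 0.10 and 0.13 when single arrays were left out. It was 0.30 with median scaling, or 0.22 relative to all kept probes, and 0.03 with 1 probe per gene.

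The calls were spread unevenly over the signal range. The boundaries 9, 11 and 13 used here were chosen after the data were seen. In the range under 9, 3 of 14 member probes were called higher (21.4%, against 2.48% of all kept probes there). Between 9 and 11 it was 6 of 13 (46.2%, against 6.8%), and between 11 and 13 it was 10 of 29 (34.5%, against 7.67%). Over 13 it was 0 of 65, where 17 of 448 probes were called (3.79%). The brightest member called higher had a mean level of 12.99, just under this boundary, so the count of 0 depends on where it was set. At an unadjusted p under 0.05, 11 of these 65 were higher and 5 lower, and their changes ran from -0.29 to 0.31. Over kept probes of every level 11.6% were higher and 12.3% lower at this threshold. The share of all kept probes over 13 was not counted for it. The middle range between 9 and 11 held 13 members, all of the large subunit. Their changes were positive in 13 of 13, with a median of 0.46. Of the 3851 kept probes of that range 1965 had a positive change, and the median over the 3851 was 0.011. The 65 members over 13 had a median of -0.0034.

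**Figure D2:**
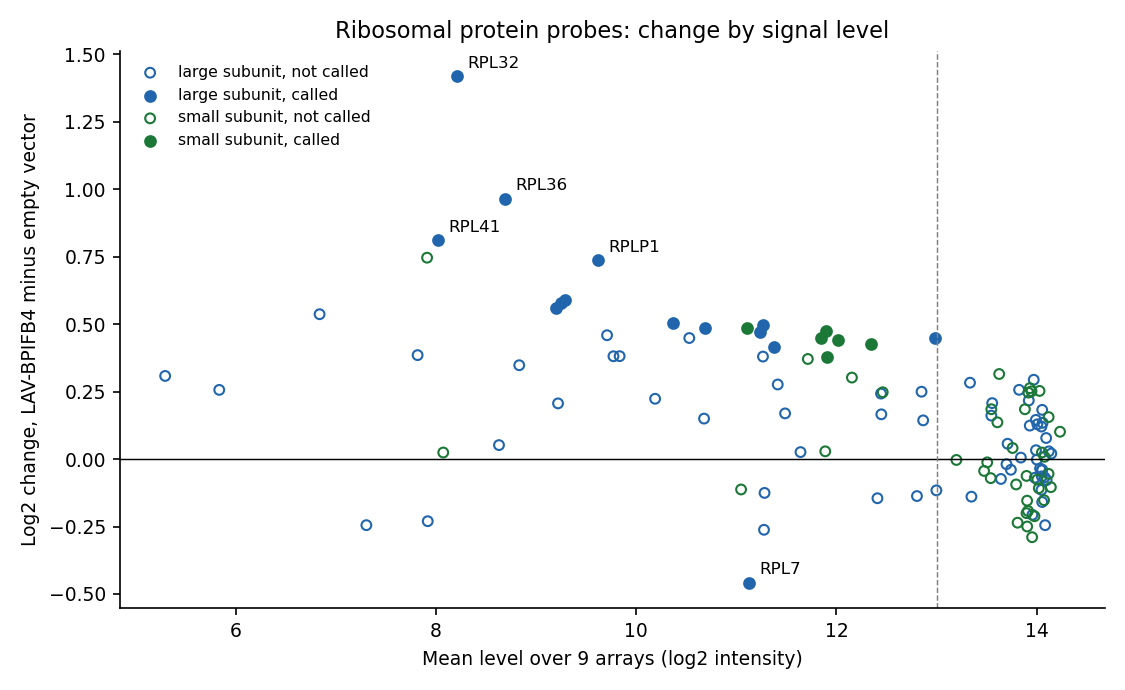
Log2 change with LAV-BPIFB4 against the empty vector (y axis) by mean level over the 9 arrays in log2 intensity (x axis), with a point per kept member probe, filled where called, in blue for the large and green for the small subunit. The dashed line marks a level of 13, and the Y-linked probe is not drawn. Called points lie to the left of the line, the brightest of those called higher at 12.99, and the 65 points to its right lie between -0.29 and 0.31.

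**Figure D3:**
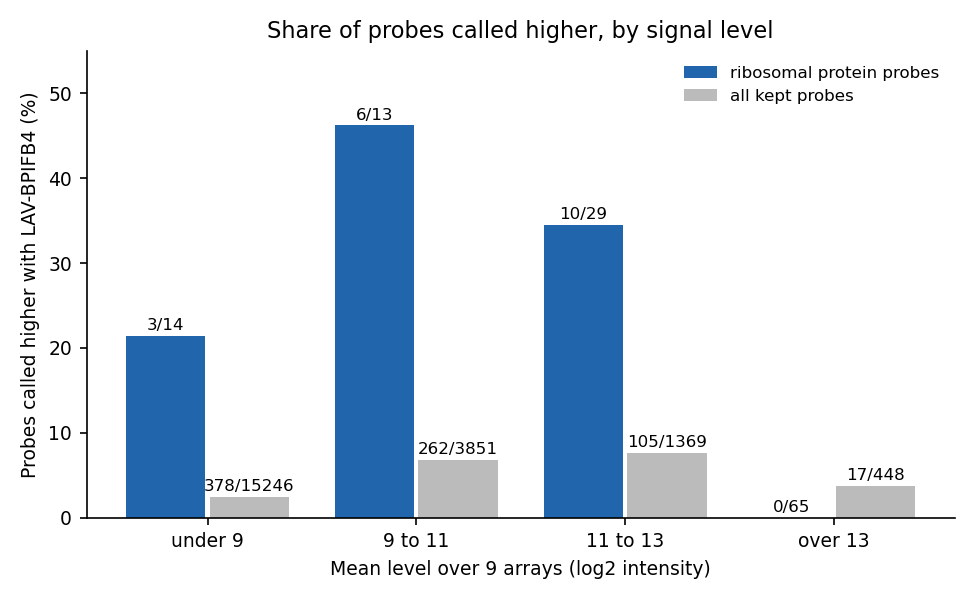
Percent of probes called higher with LAV-BPIFB4 (y axis) in 4 ranges of mean log2 intensity (x axis), for the member probes (blue) and all kept probes (grey), with the counts above the bars. The member share was highest between 9 and 11, at 46.2%, and 0 of 65 over 13.

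Genes with several probes allow the same comparison within a gene. Of the 18 genes with a called probe 15 had 2 or more kept probes, and in 11 of these the brightest probe was not called. In 7 of the 15 another kept probe, not called, had a change of the opposite sign. These changes were small, from -0.078 to -0.0022, in RPL41, RPS15A, RPS24, RPL32 and RPL6. They were -0.21 in RPLP1 and -0.29 in RPS15, and the share over all genes was not counted. In 2 of the 15, RPL13 and RPS7, every kept probe was called. Over the 34 member genes with 2 or more kept probes, the dimmest probe had the more positive change in 24, where this held for 50.2% of 3125 such genes of any kind. The median difference, dimmest minus brightest probe, was 0.16 against 0.0019.

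The gap between dimmest and brightest probe was widest in RPLP1, at 0.94 ± 0.33 (SE), RPS29, at 0.90 ± 0.36, RPL41, at 0.89 ± 0.23, and RPL36, at 0.76 ± 0.23. These differences were not called (limma on the difference, Benjamini-Hochberg adjusted p = 0.26, 0.32, 0.16 and 0.21 over 3125 genes), in a test chosen after the data were seen. It called 0 of the 34 member genes and 0.128% of all 3125. With only the brightest probe of each gene counted, 7 of 75 genes were called, 6 of them higher, and the median change was 0.03. Of all kept probes, not reduced to 1 per gene, 7.72% were called and 3.64% called higher. A call is therefore given for the probe named only. That another probe of the gene was not called does not show that the probes differ. Ribosomal protein genes also have many processed pseudogenes and close copies, and whether a probe matches them was not tested.

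**Figure D4:**
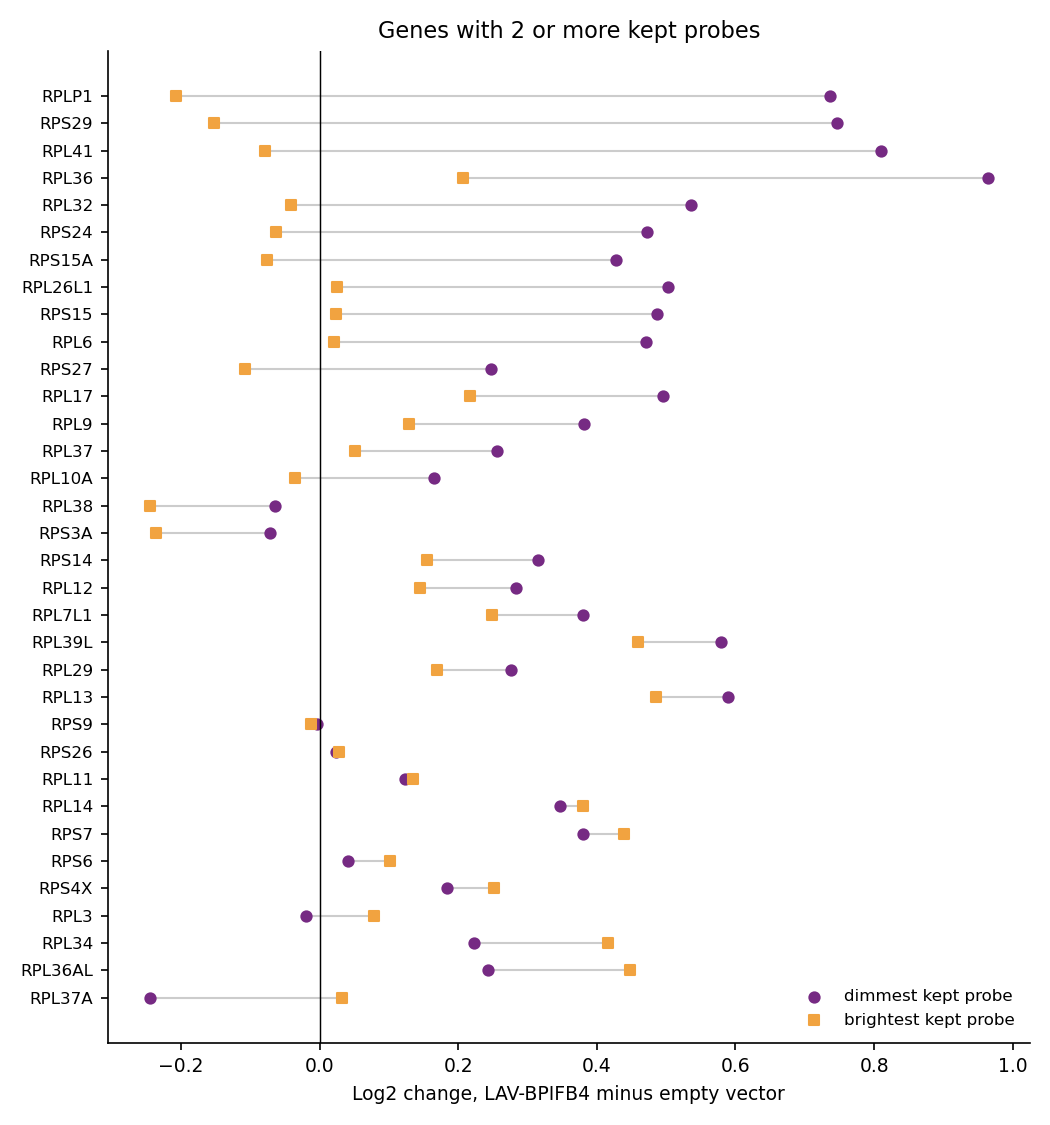
Log2 change with LAV-BPIFB4 against the empty vector (x axis) of the dimmest (circle) and the brightest (square) kept probe of each of the 34 member genes with 2 or more kept probes, ordered by their difference. The dimmest probe lies to the right in 24 genes, and the widest gap is that of RPLP1.

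In the large subunit 13 of 76 probes (17.1%) were called higher and in the small subunit 6 of 45 (13.3%), both beside 3.64% of all kept probes. The median change with LAV-BPIFB4 was 0.15 in the large and 0.02 in the small subunit. This difference, 0.12, was not tested and became 0.02 with median scaling and 0.08 with 1 probe per gene or without empty vector replicate 3. The subunits differed in brightness, since a larger share of the small subunit probes lay over 13. Among probes with a level up to 13, the median was 0.33 over 42 large subunit probes and 0.38 over 14 small subunit probes. Over 13 it was 0.013 and -0.04.

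With WT-BPIFB4 against the empty vector, the RPL32 probe described above was the only member called, higher by 0.90 ± 0.17 (limma, adjusted p = 0.0088). This is 0.826% of the members, where 1.07% of all kept probes were called. By an unadjusted p under 0.05 it was 20 of 121 members (16.5%) against 15.6% of all kept probes. The next probes by p were those of RPL13, RPL36 and RPL36AL and another of RPL32, with changes of 0.63, 0.79, 0.36 and 0.61 that were not called. The lowest p among negative changes was that of a probe of RPS3A, at -0.27, followed by RPL7, at -0.41, RPL23, RPL9 and RPL7A. The median change was 0.05 over the members and 0.0047 over all kept probes. A positive change was seen in 79 of 121 members (65.3%, against 50.6% of all kept probes), a share near that with LAV-BPIFB4.

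The first WT-BPIFB4 array read lower than the other 2 for these genes. Of the 19 probes called higher with LAV-BPIFB4, this array lay within or below the empty vector range in 13, and the other 2 WT-BPIFB4 arrays in 0. The WT-BPIFB4 mean exceeded the empty vector mean in 19 of the 19 and lay between the means of the other groups in 18, a direction that shares the empty vector arrays with the choice of the probes. The mean of all kept members was 12.16, 12.30 and 12.30 on the 3 WT-BPIFB4 arrays, beside 12.33, 12.33 and 12.29 with LAV-BPIFB4 and 12.17, 12.16 and 12.19 with the empty vector. The same array had the lowest weight in a fit with array weights, 0.44. Without it 15 member probes were called with WT-BPIFB4 and 26 with LAV-BPIFB4. Calls rose over all kept probes as well, to 1592 with WT-BPIFB4 and 2545 with LAV-BPIFB4, from 224 and 1615 in the reported fit. The member count with WT-BPIFB4 was 2 without WT-BPIFB4 replicate 2 or empty vector replicate 2. It was 7 with array weights, 1 with the value table, and 0 with median scaling, no intensity trend or 1 probe per gene. The count of all kept probes called with WT-BPIFB4 was 91 without WT-BPIFB4 replicate 2 and 252 without empty vector replicate 2. It was 1120 with array weights, 52 with median scaling, 31 with no intensity trend and 193 with the value table.

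**Figure D5:**
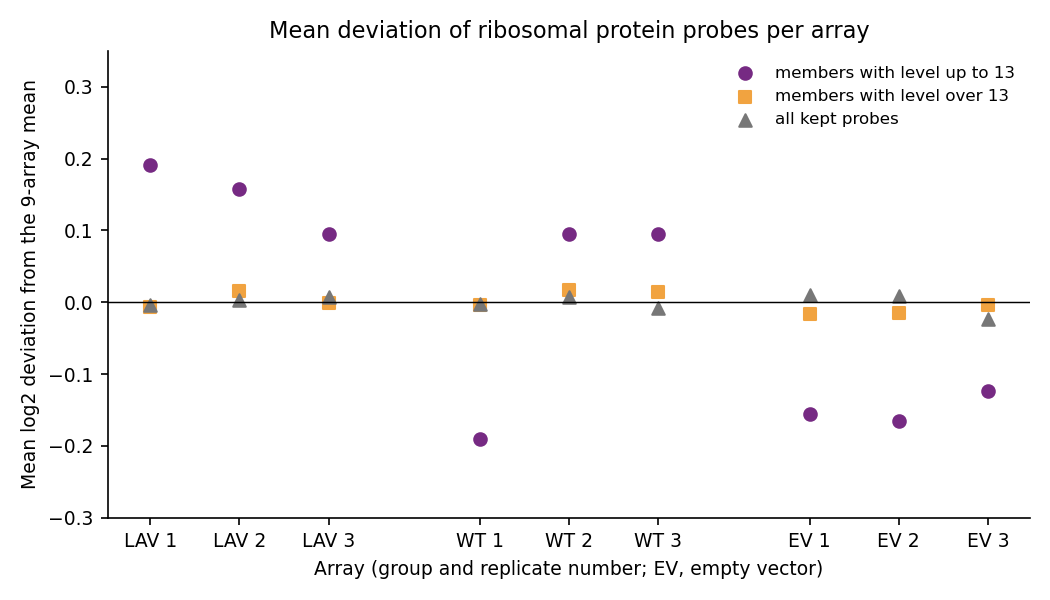
Mean deviation of member probes from their own 9-array mean, in log2 intensity (y axis), on each array (x axis), for members with a level up to 13 (circles), members over 13 (squares) and all kept probes (triangles). The dimmer members read 0.19, 0.16 and 0.09 on the LAV-BPIFB4 arrays, -0.19, 0.09 and 0.10 with WT-BPIFB4, and -0.15, -0.16 and -0.12 with the empty vector, while the brighter members and all kept probes stay within 0.03 of 0.

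LAV-BPIFB4 against WT-BPIFB4 gave no call among the members or among the 20914 kept probes with limma, where 976 probes (4.67%) and 13 members (10.7%) had an unadjusted p under 0.05. Array weights called 1 probe and the replicate block 17 of all probes, with 0 members in both. The lowest p was that of the RPLP1 probe, with a change of 0.66 ± 0.20 (limma, adjusted p = 0.97), followed by RPL32, at 0.52, and probes of RPL13, RPS4X and RPL14. The lowest in the other direction were RPL38, at -0.21, RPS19, at -0.20, another probe of RPLP1, RPS27 and RPL18. The median change of the members was 0.05, and these 3 arrays a group do not show whether the forms of BPIFB4 differ for these genes.

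The F-test over the 3 groups called 5 members (4.13%), where it called 3.93% of all kept probes. These were the probes of RPL32, RPL36, RPL36AL and RPL41 and 1 of RPL13. The count was 24 with array weights and 21 without WT-BPIFB4 replicate 1. These fits called 2270 and 2132 of all kept probes, where the reported fit called 821. The member count was 3 with the value table and without LAV-BPIFB4 replicate 2 or empty vector replicate 3, 2 with no filter on detection, and 1 with median scaling, with no intensity trend, with 1 probe per gene and without LAV-BPIFB4 replicate 1 or 3 or empty vector replicate 1. Choosing 1 probe per gene left the fit of all probes as it was. The others called fewer of all probes too, from 56 with no intensity trend to 520 with the value table.

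Genes around the family were read from 3 lists, beside 3.64% of all kept probes called higher and 4.08% called lower with LAV-BPIFB4. Of 31 kept probes for other mRNAs with a TOP tract and for ribosomal proteins with other symbols, 0 were called higher with LAV-BPIFB4 and 5 were called lower, in the poly(A)-binding protein PABPC1 with both probes (-0.86 and -0.37), the histone chaperone NAP1L1 (-0.37) and the intermediate filament VIM with both probes (-0.62 and -0.67), at adjusted p from 0.00064 to 0.049 (limma). FAU, whose product carries a small subunit protein, had a change of 0.31 (limma, adjusted p = 0.11). With WT-BPIFB4 3 of the 31 were called lower, in PABPC1 and VIM. Among 21 probes of ribosomal protein chaperones and 5S particle regulators, TSR2, the chaperone that delivers RPS26, was higher with LAV-BPIFB4 by 0.44, while the importin IPO5 and NAP1L1 were lower by 0.74 and 0.37 on the log2 scale. Among 30 probes of S6 kinases and regulators of TOP mRNAs, 0 were called higher and those of MTOR (-0.49), RPS6KB1 (-0.50) and YY1 (-0.39) were called lower, with a list median of -0.14. At an unadjusted p under 0.05, 5 probes of the first list were higher and 6 lower, 2 of the second were higher and 3 lower, and 1 of the last was higher and 7 lower. Among all kept probes 11.6% were higher and 12.3% lower at this threshold.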

How the data were processed

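HEK293T RNA was hybridised to 9 Illumina bead arrays, 3 per group. Per the file headers, the authors' deposited table pairs each array's non-normalized intensity with a p-value for detection, made with BeadStudio per the submitters' processing notes (version not given in the sources used here). A deposited value table holds a second linear intensity of unstated normalization.

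Signals were background-corrected from the detection p-values, given an offset of 16, quantile-normalized and log2-transformed (neqc, limma 3.58.1, R 4.3.3). The offset makes fold changes of dim probes smaller. The filter asked for detection at p under 0.05 on 3 or more arrays. One model with 3 group means was fitted to all kept probes (lmFit, eBayes with intensity trend, two-sided, Benjamini-Hochberg over 20914 probes). The pipeline was tested on simulated data. Of all probes 30105 carried 1 gene symbol, 8 several and 17197 none. Probes with several or none were not named. Some genes of the family are not reported here.

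The members, role lists and pathway lists were chosen with earlier results of these data known, and lists are described by counts and medians only. Named genes are those with a called member probe, and, in a direction with fewer than 5 calls, the 5 members with the lowest p. The number of arrays limits the precision. Alternatives changed the background, offset, scaling, filter, variance model, weights, probe choice, samples and source of values. Sequences come from RefSeq, GRCh38.p14.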

Additional observations from a re-analysis of the deposited data

How the results depend on the processing

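Of 2904 recomputed values of 153 named results, 2708 kept their side of the threshold, 159 lost a call and 37 gained one. The sign changed in 103 of the 2904, in 45 results, 0 of them called in the reported fit or in that alternative, and in 0 of the 21 called results. The RPL32 probe kept its call with LAV-BPIFB4 in all 19 alternatives (log2 change 0.92 to 1.52), while the call was lost in 13 of 19 for RPS21, 12 for RPL7, 11 each for RPL8 and RPL34, and 2 to 10 for the other probes called with LAV-BPIFB4. Of the 21 calls in the comparisons of 2 groups, 20 were lost with no intensity trend, 18 with median scaling, 16 with values from the value table and 14 with no filter, and the cause was not tested. Beside 20 calls with LAV-BPIFB4, 1 with WT-BPIFB4 and 5 by the F-test, median scaling gave 3, 0 and 1, no intensity trend 1, 0 and 1, and 1 probe per gene 7, 0 and 1. The value table gave 6 with LAV-BPIFB4 and 3 by the F-test, and no filter 6 and 2. Array weights gave 7 with WT-BPIFB4 and 24 by the F-test. Over all kept probes the reported fit called 1615 with LAV-BPIFB4, 224 with WT-BPIFB4 and 821 by the F-test. In the same order median scaling called 243, 52 and 171, and no intensity trend 210, 31 and 56. The value table called 913 of all kept probes with LAV-BPIFB4 and 520 by the F-test. Array weights called 1120 of them with WT-BPIFB4 and 2270 by the F-test. Median scaling moved the median of all kept probes to 0.13 for LAV-BPIFB4 against WT-BPIFB4, and the member medians to 0.30 for LAV-BPIFB4 against the empty vector, 0.16 for LAV-BPIFB4 against WT-BPIFB4 and 0.19 for WT-BPIFB4 against the empty vector, or 0.22, 0.03 and 0.22 relative to all kept probes. The large minus small subunit difference became 0.0226 for LAV-BPIFB4 and -0.00873 for WT-BPIFB4 against the empty vector. With 1 probe per gene the LAV-BPIFB4 median was 0.0284 and the subunit difference 0.0771. Leaving out single arrays gave 2 to 26 calls with LAV-BPIFB4, 1 to 15 with WT-BPIFB4, 0 to 0 between them and 1 to 21 by the F-test. The same fits called 486 to 2545, 68 to 1592, 0 to 0 and 246 to 2132 of all kept probes. Member medians then ran from 0.100 to 0.133 for LAV-BPIFB4 against the empty vector, 0.0246 to 0.0777 for LAV-BPIFB4 against WT-BPIFB4 and 0.0368 to 0.0923 for WT-BPIFB4 against the empty vector. The subunit difference ran from 0.0770 to 0.132, -0.0129 to 0.0389 and -0.00236 to 0.0503 in the same order. Fits that leave a group with 2 arrays share the spread of all groups.

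With the replicate number as a block (replicate block), 26 members were called with LAV-BPIFB4, 5 with WT-BPIFB4 and 22 by the F-test. Over all kept probes it was 2740, 829 and 1924. Deviations of same-numbered arrays correlated at 0.0011 to 0.22, over 0.1 in 3 of 9 pairs, and 6 of 9 arrays correlated best with their own number. This is a hint from the data and not from the design, and the arrays were not treated as paired.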
